A study of Mus musculus with 4 samples.

Results

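Cells with type 2 features and transcripts of Il1rl1, the gene of the IL-33 receptor ST2, were examined among CD45+ cells sorted from subcutaneous MC38 colon tumors of hCTLA-4 transgenic mice. A cell was selected when it had at least 500 detected genes, at most 10% mitochondrial UMIs (unique molecular identifiers, each counting 1 captured transcript), at least 1 UMI of Il1rl1, at least 1 UMI in the sum of Gata3, Il5 and Il13 (the type 2 condition), and at least 1 UMI of Ptprc, which encodes CD45. It also had to lack UMIs of Foxp3, Cd8a, Cd8b1, Cpa3 and Ms4a2 and to carry under 0.2% of its UMIs in the macrophage genes C1qa, C1qb, C1qc and Csf1r. Of 28194 cells kept, 99 met these conditions. The cells were thus chosen by the values of these genes, which are given as description.

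The host mice were C57BL/6 animals that express human CTLA-4, so that the human antibody ipilimumab can bind. Tumors from 11 mice per group were pooled into 1 library according to the labels, after 3 treatments and at day 8. The labels give a tumor size of about 100 mm3, and all 4 libraries belong to batch 1. The published account gives fewer tumors per group, an earlier day and lower antibody doses, and the labels were followed here. It also gives a smaller tumor size, which refers to the start of treatment. The groups were an isotype control (human IgG1, 10 mg/kg), an antibody to human CTLA-4 alone (ipilimumab), an antibody to mouse FcγRII with a silenced Fc domain alone, and their combination (ipilimumab at 10 mg/kg with anti-FcγRII at 20 mg/kg, as labelled). For the 2 single-antibody libraries the title and the treatment field contradict each other. They are therefore called by their titles, the library titled anti-human CTLA-4 and the library titled anti-mouse FcgRII, and no value is assigned to either antibody alone. With 1 library per group, no difference between treatments could be tested, and every interval below covers counting error only. Libraries held 178178393 UMIs (isotype control), 129151823 (titled anti-human CTLA-4), 142472286 (titled anti-mouse FcgRII) and 196362818 (combination). No full cell barcode was shared between libraries.

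IL-33 is an alarmin released from damaged or stressed cells. Its receptor ST2 is carried by T helper 2 cells, group 2 innate lymphoid cells (ILC2), a tissue-resident fraction of regulatory T cells, mast cells and some stromal cells, and it signals through MyD88 to NF-κB. GATA3 is the transcription factor that directs type 2 programs, IL-4, IL-5 and IL-13 are the cytokines it controls, and PPARγ is a nuclear receptor that supports the ST2-positive type 2 state in T cells and ILC2.

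The RefSeq promoter windows of Il1rl1, which every selected cell carries, and of the type 2 cytokines are shown, to set the gene of the receptor beside those of the cytokines (build GRCm38.p6, 250 bases before to 50 bases after the start). Capitals mark every NGATAN with A or T as its first and A or G as its last base, the usual form of the GATA element, read on either strand, and no other motif was searched. Il4, Il5 and Il13 lie together on chromosome 11, and Il1rl1 lies on chromosome 1. Il1rl1 has 2 starts in the table. Background knowledge places use of the upstream start in blood cells and of the downstream start in fibroblasts, and the counts, made per gene, do not separate them.
Il5, chr11:53720544-53720843, plus strand: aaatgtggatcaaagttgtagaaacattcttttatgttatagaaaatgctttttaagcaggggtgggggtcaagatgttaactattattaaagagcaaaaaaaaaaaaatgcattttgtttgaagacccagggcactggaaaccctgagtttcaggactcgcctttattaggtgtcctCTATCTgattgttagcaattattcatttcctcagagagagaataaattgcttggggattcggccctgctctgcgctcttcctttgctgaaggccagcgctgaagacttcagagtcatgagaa
Il13, chr11:53634653-53634952, minus strand: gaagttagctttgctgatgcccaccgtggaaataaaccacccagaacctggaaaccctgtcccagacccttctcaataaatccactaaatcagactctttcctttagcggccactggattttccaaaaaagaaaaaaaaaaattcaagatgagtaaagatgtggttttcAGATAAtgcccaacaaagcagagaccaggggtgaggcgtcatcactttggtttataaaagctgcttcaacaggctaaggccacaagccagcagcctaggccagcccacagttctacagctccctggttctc
Il4, chr11:53618616-53618915, minus strand: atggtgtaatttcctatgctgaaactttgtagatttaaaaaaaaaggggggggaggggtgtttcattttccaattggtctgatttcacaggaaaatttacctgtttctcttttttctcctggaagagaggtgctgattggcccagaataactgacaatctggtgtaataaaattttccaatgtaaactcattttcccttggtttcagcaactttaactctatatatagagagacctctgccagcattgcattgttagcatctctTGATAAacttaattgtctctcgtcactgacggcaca
Il1rl1 upstream start, chr1:40429320-40429619, plus strand: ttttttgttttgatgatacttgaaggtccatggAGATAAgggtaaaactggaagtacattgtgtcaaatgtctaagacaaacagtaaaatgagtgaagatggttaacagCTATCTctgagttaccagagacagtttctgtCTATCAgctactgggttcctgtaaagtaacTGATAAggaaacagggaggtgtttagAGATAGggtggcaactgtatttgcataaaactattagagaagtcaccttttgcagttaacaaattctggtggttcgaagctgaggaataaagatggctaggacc
Il1rl1 downstream start, chr1:40439379-40439678, plus strand: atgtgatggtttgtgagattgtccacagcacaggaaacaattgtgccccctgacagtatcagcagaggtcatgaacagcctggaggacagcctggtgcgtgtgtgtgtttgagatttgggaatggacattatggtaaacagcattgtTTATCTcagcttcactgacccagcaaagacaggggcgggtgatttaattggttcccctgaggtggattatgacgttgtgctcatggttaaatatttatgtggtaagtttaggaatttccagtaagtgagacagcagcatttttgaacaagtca

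Each of the 3 cytokine windows held 1 such element, which 29.8% of the 32851 windows in the table also held at least once. A second Il4 window and the Gata3 window, not printed, held 1 each, and 3 windows of Pparg held 0. The upstream Il1rl1 window held 5, a number reached by 0.0548% of windows, and the downstream window held 1. These matches describe letters and not binding.

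The label of type 2 lymphocytes was set against genes inside and outside the rule. Cd3e, a subunit of the T cell receptor complex, was detected in 68 of 99 cells, and 61 of these 68 carried Cd4. Cd4 is not particular to type 2 cells, and the rule left out cells with Cd8a or Cd8b1. T cells with Cd4 were thus favored by the choice of cells, and this count does not bear on the label. Of type 2 genes that the rule did not use, Il4 was found in 11 of the 68 and Pparg in 27. Il5 (15 cells) and Il13 (10 cells) helped to choose the cells and do not bear on the label, and 16 met the type 2 condition with a single UMI. Gata3 alone does not set them apart, since 207 of 357 Foxp3-negative CD4 T cells without Il1rl1 (58.0%) also had it. Among the 31 Cd3e-negative cells, 17 had UMIs of both Sparc and Col3a1, extracellular matrix genes typical of stromal cells and not of lymphocytes. These 17 cells were very deep, with a median of 97320 UMIs against 5521.5 in the Cd3e-positive cells, and they held 68.7% of all UMIs of the 99 cells. They had a median of 1 Gata3 UMI and 1 Ptprc UMI, 11 of 17 lacked every UMI of 6 T cell receptor genes, and none had a UMI of Il4, Il5, Il13 or Pparg. Their Il1rl1 counts ranged from 1 to 817 UMIs, with a median of 30. Relative to depth, their median Il1rl1 count per cell was lower than that of the Cd3e-positive cells. The summed level was higher, at 1119 CPM (UMIs of the gene over all UMIs of the class, on the usual CPM scale) against 637 CPM. Combination cells with 817 and 674 Il1rl1 UMIs held most of this sum. By library it was lower at 406 CPM against 2004 (isotype control) and 162 against 650 (titled anti-human CTLA-4). It was higher in the other libraries, at 654 CPM (titled anti-mouse FcgRII) and 1814 against 544 (combination). At such depth a single Gata3 and a single Ptprc transcript meet the rule, and 12 of the 17 passed with exactly 1 Gata3 UMI. The name type 2 lymphocyte therefore does not hold for these 17 cells. Of the 68 Cd3e-positive cells, 3 also had a UMI of Sparc or Col3a1. They stay in every count of Cd3e-positive cells below unless cells with a Sparc or Col3a1 UMI, 20 of the 99, are said to be left out.

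**Figure D1:**
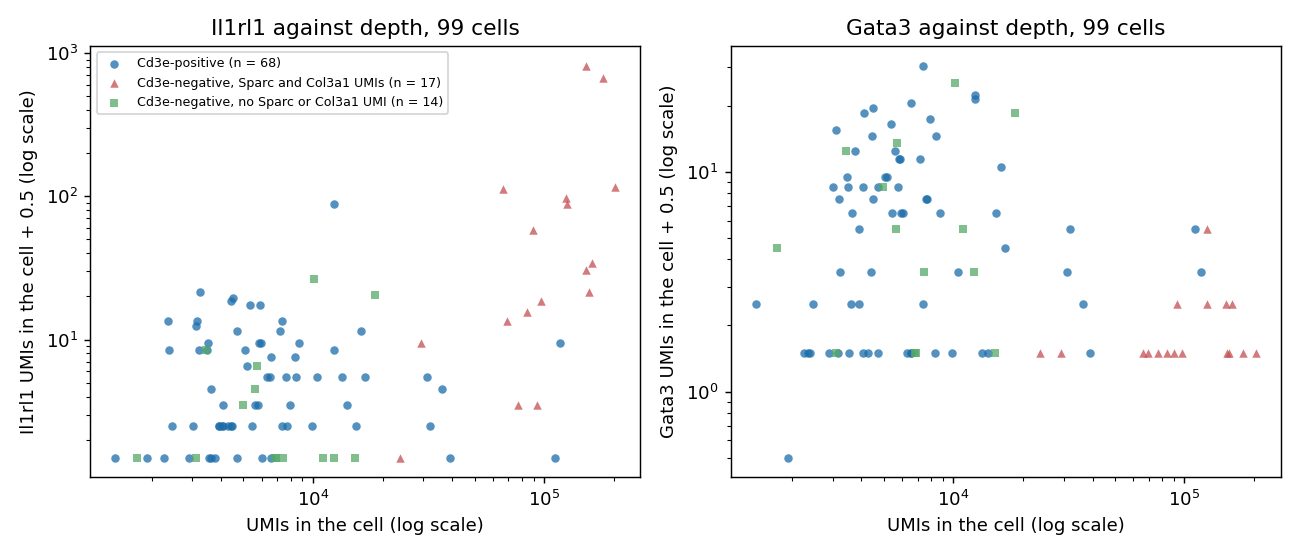
Each point is 1 of the 99 selected cells, with its total UMIs on the x axis (log scale) and its Il1rl1 (left) or Gata3 (right) UMIs plus 0.5 on the y axis (log scale). The 17 Cd3e-negative cells with Sparc and Col3a1 stood at the deep end, with 1 to 817 Il1rl1 UMIs and mostly 1 Gata3 UMI, whereas the 68 Cd3e-positive cells had a lower median depth, with single cells up to 117536 UMIs, and a median of 6 Gata3 UMIs.

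The remaining 14 Cd3e-negative cells numbered 2 in the isotype control library, 3 in the library titled anti-human CTLA-4, 1 in the library titled anti-mouse FcgRII and 8 in the combination library. They were mixed. Of other cell types, the 11 dendritic cell genes summed to 14885 CPM, with 9 detected and Cd74 the most abundant, and to 56352, 4204, 1161 and 6152 CPM by library. The 12 macrophage genes outside the rule summed to 4176 CPM, neutrophil genes to 195 and fibroblast and tumor genes to 239, all of the last from the isotype control library and mostly Cdh1. Of the 5 B cell genes 1 had a UMI, all 5 eosinophil genes were at 0, and Kit was the most abundant of 3 mast cell and basophil genes detected of 11. A cell of the isotype control library had no T cell receptor gene, no Thy1 and 1 UMI each of Il1rl1 and Gata3. The part of these genes in the results was not tested. Ncr1, the natural killer cell receptor NKp46, was detected in 5 of them, and 3 carried Cd4, so that 6 lacked both. Kit was found in 10 of 14, Il7r in 9 of 14, Thy1 in 11 of 14 and the γδ T cell gene Tcrg-C4 in 5 of 14. Only 1 of the 14 lacked every UMI of 6 T cell receptor genes, which include constant regions that innate lymphocytes also transcribe. A few cells (3 of 14), singled out after their values were seen, combined Klrg1, Il7r and Il5, the pattern described for ILC2, without Cd4 or Ncr1. They came from 3 libraries and had 1, 4 and 28 Il5 UMIs, 13, 25 and 18 Gata3 UMIs and 6, 26 and 20 Il1rl1 UMIs in the isotype control library, the library titled anti-human CTLA-4 and the combination library, respectively. Such cells were seen singly, and their share could not be compared.

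Selected cells were more frequent in 2 of the 4 libraries. There were 16 of 8148 cells in the isotype control library (0.196%, exact 95% binomial interval 0.112 to 0.319), 32 of 6364 in the library titled anti-human CTLA-4 (0.503%, 0.344 to 0.709), 14 of 6083 in the library titled anti-mouse FcgRII (0.230%, 0.126 to 0.386) and 37 of 7599 in the combination library (0.487%, 0.343 to 0.671). Relative to the isotype control library the shares were 2.56 times (1.41 to 4.66), 1.17 times (0.572 to 2.40) and 2.48 times (1.38 to 4.45) as large. Without the cells with a Sparc or Col3a1 UMI the 3 ratios were 2.65 (1.40 to 5.01), 0.670 (0.270 to 1.66) and 2.22 (1.17 to 4.20). The denominators matter here, since lymphocytes made up different parts of the libraries. With cells that met the lymphocyte criteria and all selected cells as the denominator, the 3 ratios were 1.36 (0.750 to 2.46), 1.47 (0.725 to 2.99) and 1.90 (1.07 to 3.39). With cells carrying a Sparc or Col3a1 UMI left out of both counts (14 of 735, 29 of 1071, 7 of 426 and 29 of 881) they were 1.42 (0.756 to 2.67), 0.863 (0.351 to 2.12) and 1.73 (0.920 to 3.25), each with 1 inside its interval. The condition on Foxp3 mattered too, and without it the 3 ratios over all cells were 1.58 (1.01 to 2.48), 0.946 (0.561 to 1.59) and 1.29 (0.822 to 2.04).

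The Cd3e-positive fraction was 12 of 16 cells (95% interval 47.6 to 92.7%) in the isotype control library, 27 of 32 (84.4%, 67.2 to 94.7) in the library titled anti-human CTLA-4, 7 of 14 (23.0 to 77.0%) in the library titled anti-mouse FcgRII and 22 of 37 (59.5%, 42.1 to 75.2) in the combination library. The 4 intervals overlapped. Without cells with a Sparc or Col3a1 UMI the fractions were 85.7%, 89.7%, 85.7% and 72.4%. As a share of all cells, Cd3e-positive selected cells were 0.147%, 0.424%, 0.115% and 0.290% in the same order. Their ratio to the isotype control library was 2.88 (1.46 to 5.68) in the library titled anti-human CTLA-4, 0.781 (0.308 to 1.98) in the library titled anti-mouse FcgRII and 1.97 (0.974 to 3.97) in the combination library. Without the condition on Foxp3 the ratio of the combination library turned to 0.961 (0.567 to 1.63). Among Foxp3-negative CD4 T cells, those with Il1rl1 and the type 2 condition were 8 of 108 (7.41%, 3.25 to 14.1), 27 of 186 (14.5%, 9.79 to 20.4), 4 of 39 (10.3%, 2.87 to 24.2) and 22 of 102 (21.6%, 14.0 to 30.8). The combination library was at 2.91 times the isotype control library by this measure as counted (1.36 to 6.24). The 7 Cd3e-positive cells without Cd4 were in the isotype control library (4) and the library titled anti-mouse FcgRII (3), and none of the 7 had Il4, Il5, Il13 or Pparg.

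Detection of a gene at 1 UMI depends on depth, so each cell was also thinned to 3112 UMIs and shallower cells were left out (476, 376, 202 and 522 cells). Over 100 draws the mean number of selected cells was 8.53, 21.9, 4.38 and 14.9 in the same order, and the ratios to the isotype control library became 3.29, 0.670 and 1.89. Selected cells with a Sparc or Col3a1 UMI almost vanished, at 0.05 or fewer per draw. Among Foxp3-negative CD4 T cells the thinned shares were 7.92%, 15.2%, 4.24% and 13.5%, so that the library titled anti-human CTLA-4 was highest and the ratio of the combination library to the isotype control library was 1.71. The Cd3e-positive fraction was higher than as counted in all 4 libraries, at 82.3%, 91.8%, 73.7% and 66.8%.

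**Figure D2:**
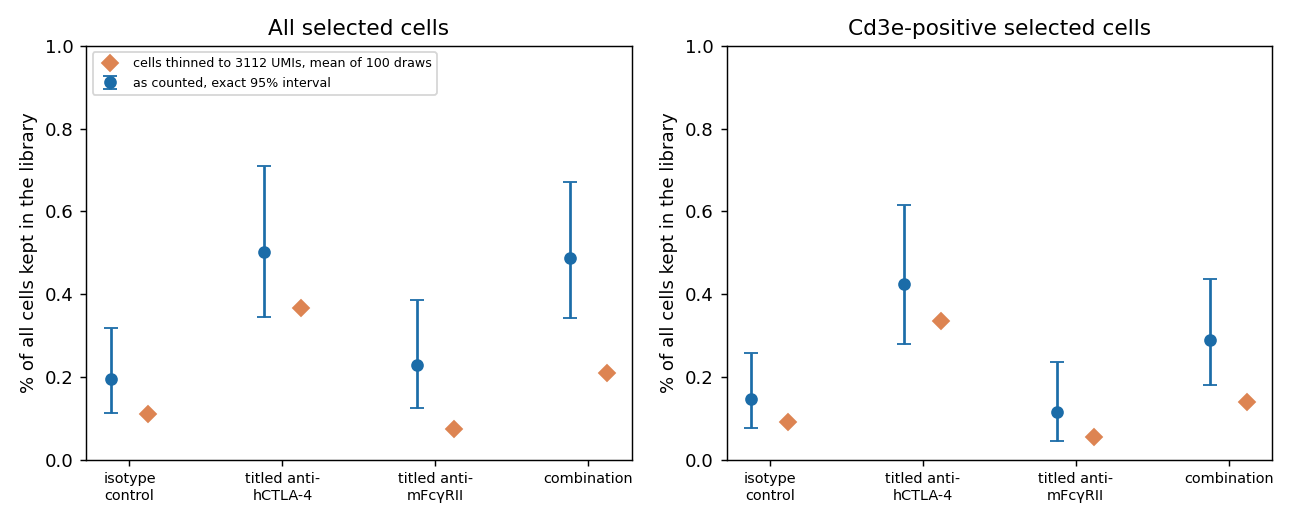
The y axis gives selected cells (left) and Cd3e-positive selected cells (right) as a percentage of all cells kept, for each of the 4 libraries. Circles with exact 95% intervals are shares as counted and diamonds are means over 100 draws with each cell thinned to 3112 UMIs. The library titled anti-human CTLA-4 and the combination library lay above the other 2 by both measures.

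Each condition of the rule removed cells. Of 28194 cells, 1697 had Il1rl1, 752 of these had Gata3, Il5 or Il13, 704 had Ptprc, 474 lacked Foxp3, 259 lacked Cd8a and Cd8b1, 240 lacked Cpa3 and Ms4a2, and 99 stayed under the macrophage limit. Near the thresholds, 12 of the 68 Cd3e-positive cells had just 1 Il1rl1 UMI and 16 had just 1 UMI over Gata3, Il5 and Il13. Outside the Il1rl1 threshold, 210 Cd3e- and Cd4-positive cells met every other condition with 0 Il1rl1 UMIs.

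The Cd3e-positive selected cells had genes of the T cell receptor complex. Pparg, Il4, Il5 or Il13 was found in 31 of the 68, namely 4 of 12, 17 of 27, 0 of 7 and 10 of 22 by library. The other Cd3e-positive cells met the type 2 condition through Gata3 alone, which does not set them apart from other CD4 T cells. Cd3d, a further receptor subunit, was detected in 60 of 68 and Trac, the α chain constant region, in 66 of 68. In reference macrophages, which were chosen for lacking T cell receptor genes, Il5 was detected in 2 of 10629 cells and Il13 in 24, as a measure of background for these cytokines. Il1rl1 counts per cell ranged from 1 to 88 in the isotype control library (median 2, 12 cells), from 1 to 19 in the library titled anti-human CTLA-4 (median 5, 27 cells), from 1 to 7 in the library titled anti-mouse FcgRII (median 2, 7 cells) and from 1 to 21 in the combination library (median 5, 22 cells). Gata3 counts had medians of 6.5, 7, 1 and 2.5 in the same order, and the ranges of 1 to 21, 1 to 30, 1 to 18 and 0 to 17 overlapped. Median totals were 3837, 5893, 6311 and 5516 UMIs per cell.

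Type 2 cytokine transcripts were present in a minority. Any of Il4, Il5 or Il13 was detected in 22 of 68 Cd3e-positive cells, namely 4 of 12, 11 of 27, 0 of 7 and 7 of 22. Il5, which sustains eosinophils, was found in 3 of 12, 8 of 27, 0 of 7 and 4 of 22 cells, with 4, 17, 0 and 8 UMIs. Il4, which acts on B cells and macrophages, was found in 2 of 12, 7 of 27, 0 of 7 and 2 of 22 cells. Il13, which acts on epithelium and macrophages, was found in 2 of 12, 4 of 27, 0 of 7 and 4 of 22 cells. The 0 of 7 in the library titled anti-mouse FcgRII is too few cells to show absence.

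Il4 and Il13 rested on 1 cell in the isotype control library. That cell had 12353 UMIs, among them 88 of Il1rl1, 111 of Il13, 87 of Il4 and 12 of Pparg. It accounted for 111 of the 112 Il13 UMIs and 87 of the 88 Il4 UMIs of its library's Cd3e-positive cells. Summed levels of these genes by library therefore mainly describe it, and counts of cells are used instead. Across libraries, Il5 and Il13 occurred together in 7 of 68 cells and all 3 cytokines in 3 of 68.

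Pparg, which the rule did not use, was detected more often than any of the 3 cytokines. It was found in 27 of 68 Cd3e-positive cells, 3 of 12 in the isotype control library, 16 of 27 in the library titled anti-human CTLA-4, 0 of 7 in the library titled anti-mouse FcgRII and 8 of 22 in the combination library. Its counting intervals were wide, at 28.0% to 52.3% for the 4 libraries together. Pparg and cytokine transcripts occurred in the same cells, since 18 of 27 Pparg-positive and 4 of 41 Pparg-negative cells had Il4, Il5 or Il13. Cells with more Il1rl1 had Pparg more often, 27 of 56 with 2 or more Il1rl1 UMIs against 0 of 12 with 1. These counts share the depth of each cell, and no test was made of them.

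**Figure D3:**
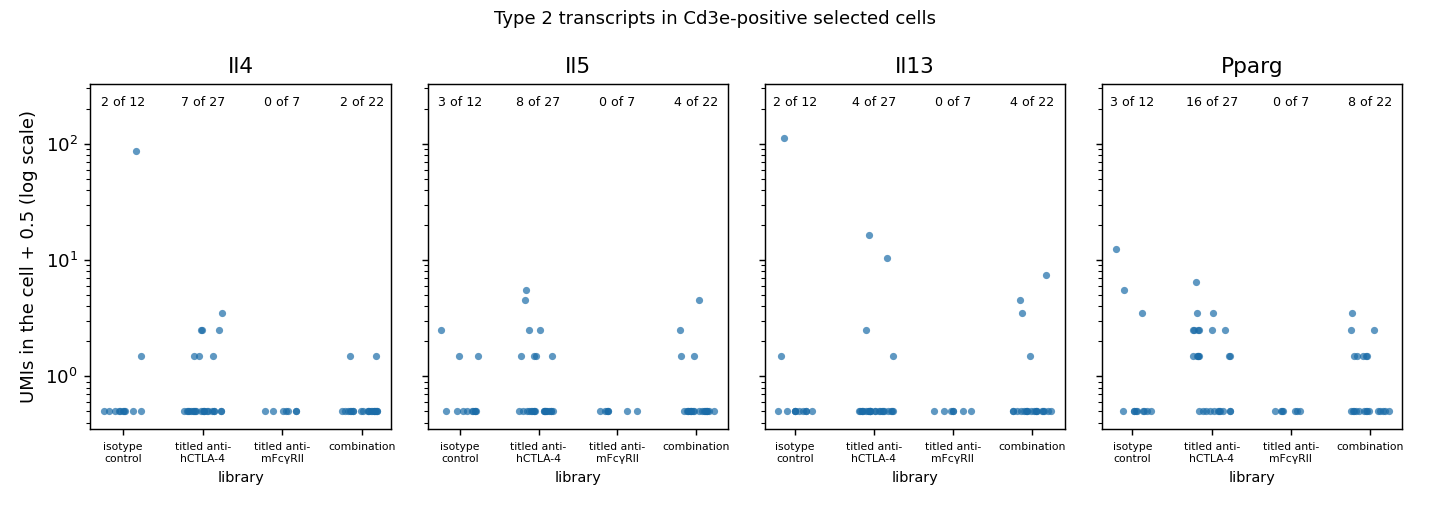
Each point is 1 of 68 Cd3e-positive selected cells, with its UMIs of Il4, Il5, Il13 or Pparg plus 0.5 on the y axis (log scale) and the library on the x axis. Numbers at the top give the cells with a UMI. A single isotype control cell holds most Il4 and Il13 UMIs, and Pparg is spread over 16 of 27 cells of the library titled anti-human CTLA-4.

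The cells were set beside 357 Foxp3-negative CD4 T cells without Il1rl1, with a median of 3896 UMIs. Pparg was found in 10 of these 357 (2.80%) against 27 of 68 (39.7%), and the Pparg level in CPM, the gene's share of all UMIs of the class on the usual CPM scale, was 304, 108, 0 and 48.7 in the 4 libraries against 2.17, 3.91, 7.87 and 15.3. Values were higher among Il1rl1-positive cells in 3 of 4 libraries. In the isotype control library 12 of the 20 UMIs came from the single cell described above, and without it the level was 150 CPM. After thinning to 3112 UMIs the shares with Pparg were 31.3% and 1.34%. Il5 and Il13 helped to choose the selected cells and not the others, so their shares are a description. Il5 was found in 6 of 357 (1.68%) against 15 of 68 (22.1%), and Il4 in 7 of 357 against 11 of 68 (16.2%). Il9r, the receptor of IL-9, was found in 25 of 357 against 21 of 68 (30.9%), and Nmur1, the receptor of the neuropeptide neuromedin U, in 1 of 357 (0.280%) against 8 of 68 (11.8%). Il13 differed in kind. It was found in fewer Il1rl1-negative cells, 11 of 357 (3.08%) against 10 of 68 (14.7%), but these 11 held 756 UMIs, so that its level was 376 CPM against 210. Without the single isotype control cell, which held 111 of the 156 UMIs, the level in the selected cells was 61.5 CPM. High Il13 counts thus also occurred in CD4 T cells without an Il1rl1 UMI. Ptgdr2, the prostaglandin D2 receptor of T helper 2 cells, and Il9 were detected in 0 of 68 cells, which at 3 counts allows a share of cells with a UMI of up to 4.41% and sets no limit on cells that express them.

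**Figure D4:**
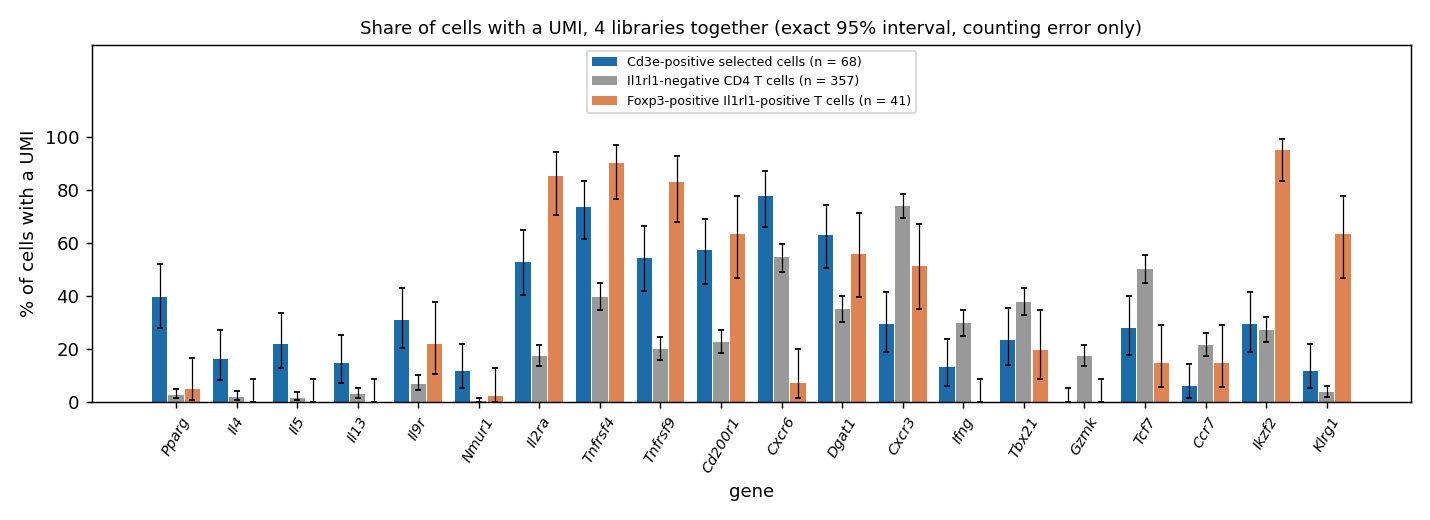
Bars give the percentage of cells with a UMI of each gene on the x axis in 3 classes over the 4 libraries together, with exact 95% intervals for counting error. Il5 and Il13 are part of the rule that chose the first class. Pparg, Il4, Il5, Il13 and Nmur1 are most frequent in the Cd3e-positive selected cells, whereas Ikzf2 and Klrg1 are most frequent in Foxp3-positive Il1rl1-positive T cells and Cxcr3, Ifng and Gzmk in Il1rl1-negative CD4 T cells.

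Across genes, the 2 classes were compared with edgeR's quasi-likelihood test on UMIs summed per library and class, with library as a block (12, 27, 7 and 22 against 95, 157, 33 and 72 cells). Genes of the rule and Cd4 and Cd3e were left out before adjustment. No gene of 6100 tested passed the adjusted threshold of 0.05 (percent called 0), and 490 had an unadjusted p under 0.05. DESeq2 called 10 genes. The class of selected cells was uneven in depth, since 1 Cd3e-positive cell with both Sparc and Col3a1 held 75.9% of the UMIs of 7 cells in the library titled anti-mouse FcgRII and 1 held 41.1% of those in the library titled anti-human CTLA-4. With cells carrying a Sparc or Col3a1 UMI left out, 4970 genes were tested and again 0 were called (percent called 0), with 278 at an unadjusted p under 0.05. With cells thinned to 3112 UMIs, an alternative added after the data were seen, 17 of 2002 genes were called, 11 higher and 6 lower. Of the selected cells 9 of 68, and of the CD4 T cells 104 of 357, were shallower than this depth.

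No gene of the type 1 program passed the threshold in edgeR on the unthinned counts with the count filter, and the list did not move one way in every library. Its summed level was 1139, 633, 288 and 2844 CPM in the 4 libraries against 3356, 4032, 5087 and 2820, so that the combination library was not lower. Ccl5, a chemokine of effector cells, was at 1420 CPM there against 912. Without the 4 deepest of the 22 combination cells, left out after seeing the data, the list was at 4565 CPM and Ccl5 at 2513. Cxcr3, a chemokine receptor of T helper 1 and effector cells, had 75.9, 133, 47.9 and 93.3 CPM in the Cd3e-positive selected cells of the 4 libraries and 526, 547, 512 and 286 in Il1rl1-negative CD4 T cells, so that every library was lower. Its log2 fold change was -2.29 ± 0.37 (SE, 4 libraries, edgeR adjusted p = 0.291). It passed in DESeq2 (adjusted p = 0.000975), in edgeR without the count filter (adjusted p = 0.00193) and, at -1.91, in thinned cells (edgeR adjusted p = 0.0379). Ifng, the cytokine of type 1 responses, had 15.2, 28.0, 0 and 56.8 CPM against 204, 642, 339 and 102, at -3.32 ± 0.78 (edgeR adjusted p = 0.500), and passed in DESeq2 (adjusted p = 0.0116) and in edgeR without the count filter (adjusted p = 0.00292). Tcf7, a factor of naive and memory-like T cells, was at -1.98 ± 0.37 (edgeR adjusted p = 0.453) and passed in DESeq2 (adjusted p = 0.0397), in edgeR without the count filter (adjusted p = 0.00518) and in thinned cells (adjusted p = 0.0425). Gzmk, a granzyme, had no UMI in the 68 cells and was found in 62 of 357 CD4 T cells. It passed in DESeq2 (adjusted p = 4.93e-05) and in edgeR without the count filter (adjusted p = 1.96e-05). S1pr1, of the residency and egress list, passed in edgeR without the count filter (-1.71, adjusted p = 0.0249). Of the 14 type 1 effector genes, 10 were tested, 0 were called and the median log2 fold change was -1.46 against 0.0034 over all genes tested. Without cells with a Sparc or Col3a1 UMI it was -0.69 over 9 genes against -0.0035.

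Tnfrsf9, Cd200r1 and Dgat1, singled out after their values were seen, were at higher levels in 3 of 4 libraries, and none passed the threshold in edgeR with all cells. Tnfrsf9 encodes the costimulatory receptor 4-1BB and had 941, 416, 178 and 442 CPM in the Cd3e-positive selected cells against 200, 203, 181 and 270. Its log2 fold change was 1.09 ± 0.40 (edgeR adjusted p = 0.601), 1.78 ± 0.27 without cells with a Sparc or Col3a1 UMI (adjusted p = 0.141) and 2.13 in thinned cells (adjusted p = 0.00552). Cd200r1, an inhibitory receptor, was at 0.81 ± 0.40 (edgeR adjusted p = 0.601) and at 1.87 in thinned cells (adjusted p = 0.0425). Dgat1, which makes triglycerides, had 334, 430, 20.5 and 381 CPM against 154, 110, 31.5 and 209, at 1.20 ± 0.37 (edgeR adjusted p = 0.601). Of 15 checkpoint and costimulatory receptors, 13 were tested and 0 called, and their median of -0.26 turned to 0.66 without cells with a Sparc or Col3a1 UMI, over 12 genes, so that no direction is given for the list. The same held for 19 type 2 transcription factors outside the rule, of which 15 were tested and 0 called, with medians of -0.31 and 0.06. Pparg, Il4 and Il9r did not pass the count filter and have no test here.

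**Figure D5:**
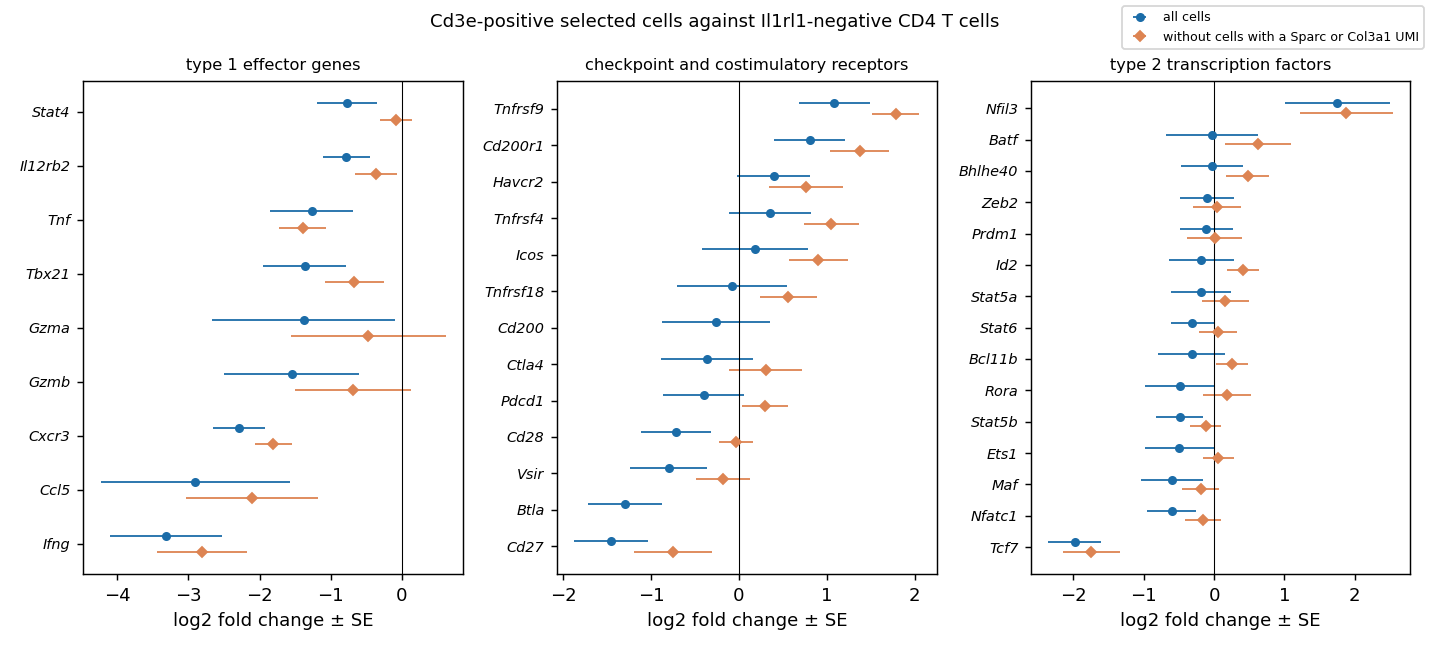
Points give log2 fold changes with their SE on the x axis for the tested genes of 3 lists, in Cd3e-positive selected cells against Il1rl1-negative CD4 T cells (edgeR, 4 libraries). Circles use all cells and diamonds leave out cells with a Sparc or Col3a1 UMI, which moves most genes to the right, and Gzmk is omitted because it had no UMI in the selected cells. None of the genes passed the adjusted threshold in either fit, with Cxcr3 at -2.29 and -1.81 and Tnfrsf9 at 1.09 and 1.78.

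Foxp3-positive T cells with Il1rl1, which meet every other condition, numbered 17, 10, 10 and 4 in the 4 libraries. None of these 41 cells had Il4, Il5 or Il13, and 2 had Pparg. Ikzf2, the regulatory T cell factor Helios, was found in 39 of 41 against 20 of 68 Cd3e-positive selected cells, Klrg1 in 26 of 41 against 8 of 68, and Itgae, the integrin CD103, in 25 of 41 against 4 of 68. Cxcr6 was found in 3 of 41 against 53 of 68 and Cd40lg, the CD40 ligand, in 3 of 41 against 39 of 68. Il2ra was frequent in both, in 35 of 41 and 36 of 68, and Ccr8 in 16 of 41 and 28 of 68. Absence of Foxp3 UMIs is a condition of the rule, so part of the contrast follows from the choice of cells, and no test was made.

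Genes of other cell types were measured in the Cd3e-positive selected cells as whole lists. The 11 genes of natural killer cells and group 1 innate lymphoid cells (ILC1) summed to 562, 399, 82.2 and 523 CPM by library. Cd200r1 was the most abundant of them in each library. Ncr1 or Klrb1c was detected in 2 of 68 cells, and these were in the combination library. The 6 γδ T cell genes summed to 486, 10.5, 0 and 0 CPM, with Trdc at 334 CPM in the isotype control library. Of 5 eosinophil genes, 4 were at 0 and Ccr3 had 7 UMIs. Of 11 mast cell and basophil genes, 7 were at 0, 2 of them by the rule. Of 5 B cell genes, 4 were at 0. Of 6 neutrophil genes 5 had UMIs, 71 in all, and 63 of these were in the combination library. The 8 fibroblast and tumor genes summed to 30.4, 1245, 1274 and 40.6 CPM, with 4 genes at 0 in all 68 cells. Their most abundant gene was Cdh1 in the isotype control and combination libraries, Sparc in the library titled anti-human CTLA-4 and Col3a1 in the library titled anti-mouse FcgRII. The 11 dendritic cell genes, of which 7, 6, 6 and 2 were at 0 by library, summed to 7410, 332, 1157 and 14231 CPM, against 3456, 2917, 370 and 10382 in Il1rl1-negative CD4 T cells. Cd74 led them in 3 libraries and Fscn1 in the library titled anti-human CTLA-4. The 12 macrophage genes outside the rule all had UMIs, and their summed level was 3508 CPM in the isotype control library, 797 in the library titled anti-human CTLA-4, 5485 in the library titled anti-mouse FcgRII and 15792 in the combination library. In Il1rl1-negative CD4 T cells the same sum was 6127, 3935, 921 and 11664, so that the combination library was also highest there. Ctss led in the isotype control library (1443 CPM) and Spp1 in the library titled anti-mouse FcgRII (2472 CPM), whereas Lyz2, the lysozyme of myeloid cells, led in the other two, at 364, 329, 1171 and 5570 CPM over the 4 libraries. Apoe, also abundant in macrophages, was at 121, 66.4, 322 and 1748 CPM. Among the 1387 genes with enough UMIs in this class, 140 were at least 2-fold higher and 2 at least 2-fold lower in the combination library than in each other library. The largest ratios to the isotype control library were those of Pla2g7, a secreted phospholipase (19.1, counting interval 6.46 to 93.6, from 3 UMIs in the isotype control library), Lyz2 (15.3, 10.2 to 23.9), Apoe (14.4, 7.24 to 33.6) and the complement gene C3 (13.0, 4.36 to 63.8, from 3 UMIs). Clec4d, a myeloid lectin with 0 UMIs in the isotype control library, was at least 11.6-fold higher, with 3 counts as the floor, but only 1.62-fold above that floor without the 4 deepest cells described next. H2afz, a histone variant (0.0668), and Dnajc9, a histone chaperone (0.169), were lower. A few deep cells carried these sums. The 4 deepest of the 22 combination cells (30978 to 38986 UMIs, with 0.0910 to 0.139% of UMIs in the macrophage genes of the rule) held 56.1% of all UMIs of the class, 94.0% of those of Lyz2, 98.8% of Apoe and 91.2% of Pla2g7. Without these 4 cells the ratio was 2.08 for Lyz2, 0.380 for Apoe, which turned direction, 3.85 for Pla2g7 and 4.67 for C3. No value without them is available for the lower genes H2afz and Dnajc9. Leaving them out was chosen after seeing the data, and the part of myeloid RNA in these ratios was not tested.

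The Cd3e-negative selected cells were compared with the Cd3e-positive ones in the 3 libraries with at least 5 cells of each. edgeR called 273 of 6703 genes (percent called 4.07), 256 higher (3.82%) and 17 lower (0.254%) in Cd3e-positive cells. Of 14 tested genes of T cell identity 13 were higher, with Trac at 6.92 ± 0.51 (adjusted p = 0.0124), Cd3g at 6.30 ± 0.71 and Cd4 at 6.11 ± 0.59 on the log2 scale. The classes were split by Cd3e, which T cells express together with these genes. Their higher levels thus follow from the choice of cells and are a description. Of 15 checkpoint and costimulatory receptors 9 were tested and 6 were higher, and of 13 genes of residency and egress 8 were tested and 6 were higher. The 17 lower genes included Inhba, a subunit of activin (-2.66 ± 0.46), Osr2, a mesenchymal transcription factor (-3.49 ± 0.68), and Irs1, an adaptor of insulin signalling (-3.92 ± 0.74). The Cd3e-negative sums came mostly from the 17 cells with Sparc and Col3a1, and without those cells only the combination library kept 5 cells of each kind, so that no fit was possible. Leaving out the library titled anti-human CTLA-4 left 0 calls, as did removal of likely doublets (the top 5% by Scrublet score), by which that library also dropped below 5 cells.

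Against 399, 197 and 366 Ncr1-positive innate lymphocytes of the same 3 libraries, the Cd3e-negative selected cells differed in 6204 of 9988 genes (percent called 62.1), 3075 higher (30.8%) and 3129 lower (31.3%). The most raised genes included Wnt7b, a secreted growth factor (11.9 ± 0.40 on the log2 scale, edgeR adjusted p = 1.65e-05), and Col5a1, a collagen chain (11.4 ± 0.43). Lamb1, a laminin chain (11.2 ± 0.44), and the transcription factors Tead2 (11.2 ± 0.43), Tead1 (11.0 ± 0.45) and Sox9 (10.9 ± 0.42) were also among them. The most lowered genes included the granzymes Gzmg, Gzmf, Gzmc and Gzme. All 13 tested type 1 effector genes and 9 of 10 tested genes of natural killer cells and ILC1 were lower. The comparison cells were chosen for Ncr1, so part of this contrast follows from the choice of cells. Fitted fold changes of genes with 0 UMIs in 1 class depend on the prior count. In these sums, which came mostly from the 17 cells with Sparc and Col3a1, 0 of 16 tested type 2 transcription factors were higher and 15 lower, and 0 of 4 tested type 2 effector genes were higher and 3 lower. The summed level of the 20 type 2 transcription factors, Gata3 included, was 1132 CPM in those 17 cells and 8085 CPM in the other 14 Cd3e-negative cells.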

How the data were processed

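CD45+ cells of 4 pooled tumor samples were profiled with a probe-based 10x Genomics assay. The deposited values are whole-number UMI counts per gene (19059 genes) and cell barcode, made by the authors with Cell Ranger (7.2.0 in the file headers, 7.0.0 in the submitters' processing notes, which name mm10). Doublets and low-quality cells were still present in them. Cells under 500 genes or over 10% mitochondrial UMIs were left out, which kept 8148, 6364, 6083 and 7599 of 8173, 6390, 6097 and 7630 barcodes. Intervals are exact binomial or log intervals at 95% and cover counting error only.

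Members and gene lists were chosen with earlier results of these data known. UMIs were summed per library and class and tested two-sided with edgeR 4.0.16 (R 4.3.3, TMM, filterByExpr, library block, Benjamini-Hochberg over all genes tested, rule genes left out), in libraries with at least 5 cells in both classes. DESeq2 1.42.0, other normalizations and filters, leave-one-out fits, 5% highest Scrublet scores (scanpy 1.11.5) left out and thinning to 3112 UMIs were alternatives. Named genes are the 10 most raised and 10 most lowered calls with 1 direction in every library, all genes of the fixed lists, and the 5 largest and smallest ratios of combination to isotype control. edgeR was tested on simulated data. Since libraries pool animals, the p-values measure spread between libraries that differ in treatment. Promoters came from RefSeq (6 of 6 genes matched) and chromosomes from GENCODE M21 (GRCm38).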

Additional observations from a re-analysis of the deposited data

How the results depend on the processing

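Over 12 alternatives the ratio of the share of selected cells to the isotype control library was 1.36 to 3.84 (titled anti-human CTLA-4), 0.670 to 1.61 (titled anti-mouse FcgRII, turning direction) and 1.29 to 3.11 (combination), and that of Cd3e-positive ones 1.49 to 4.39, 0.502 to 1.15 (turning direction) and 0.961 to 2.91 (turning direction). Without the condition on Foxp3 the combination to isotype control ratio was 1.29 for selected cells and 0.961 for Cd3e-positive ones, and over lymphocytes the ratio of the library titled anti-human CTLA-4 was 1.36. The Cd3e-positive share became 85.7% in the library titled anti-mouse FcgRII without cells with a Sparc or Col3a1 UMI, and 96.9% (titled anti-human CTLA-4) and 91.9% (combination) when any of 6 T cell receptor genes counted.

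Summed levels, combination over isotype control, depended on few cells. Il1rl1 (1.88) turned to 0.896 with at least 2 UMIs of Gata3, Il5 and Il13 and to 0.940 as a mean over cells. It also turned to 0.366 without cells with a Sparc or Col3a1 UMI and to 0.271 in Cd3e-positive cells. Among the latter, the isotype control cell rich in Il4 and Il13 held 88 Il1rl1 UMIs. Without that cell the isotype control level fell from 2004 to 822 CPM, against 544 CPM in the combination library. The Il1rl1 ratio was 1.43 and 1.52 with macrophage limits of 0.1% and 0.5% and 2.29 without the Foxp3 condition. Gata3 (0.338) was 0.159 with at least 2 UMIs, 0.216 with the 0.1% limit and 0.556 as a mean over cells. Il5 (1.71) was 0.469 with the 0.1% limit and 0.534 in Cd3e-positive cells. Pparg (0.176) was 0.0778 with at least 2 UMIs and 0.525 as a mean over cells.

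Cd3e-positive against Cd3e-negative cells gave 112 lower genes with DESeq2, 591 higher and 176 lower without a count filter, 36 lower without the library term, 0 and 0 with doublet scores trimmed, and 0 to 363 higher and 0 to 115 lower with 1 library left out. Against Il1rl1-negative CD4 T cells, calls were 2 higher and 8 lower with DESeq2, 107 and 47 without a count filter, 11 and 6 in thinned cells, 1 lower in cells with Cd4, 1 lower against Gata3-positive CD4 T cells, and 0 to 1 lower with 1 library left out. The cause was not tested. Without TMM, 58.9% of the calls against innate lymphocytes were higher and the median over all genes was 0.199. Leaving out cells with a Sparc or Col3a1 UMI or single deep cells, thinned shares of CD4 T cells, restricting to Cd3e- or Cd4-positive cells, the Gata3-positive comparator and the thinned fit were chosen after seeing the data. The T cell receptor split and, for the fits on Cd3e-negative cells, leaving out cells with a Sparc or Col3a1 UMI could not be fitted, as 1 library remained. No paired analysis was possible because each treatment group is 1 library, while the cell classes were paired within library through the library term. With 99 cells and 1 library per group, depth limits every share of a low gene.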

Other observations

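Il1rl1 was not confined to lymphocytes in these tumors. Over all cells kept, 327 had 10 or more UMIs in Sparc and Col3a1 together, and 243 of them (74.3%, exact 95% interval 69.2 to 79.0) had Il1rl1, and 35.9% with cells thinned to 3112 UMIs. Ptprc was detected in 124 of the 327 (37.9%). By library the shares were 62.1% of 58 cells (isotype control), 76.1% of 88 (titled anti-human CTLA-4), 70.1% of 107 (titled anti-mouse FcgRII) and 87.8% of 74 (combination), or 36.0%, 32.5%, 28.0% and 51.3% when thinned, with levels of 309, 349, 258 and 707 CPM (share of all UMIs of these cells on the usual CPM scale). Together these cells held 11373 Il1rl1 UMIs at 403 CPM, and the 68 Cd3e-positive selected cells held 474 at 637 CPM.

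Il33, the ligand of ST2, was detected in 16 of 8148, 25 of 6364, 15 of 6083 and 22 of 7599 cells, with 67, 227, 54 and 251 UMIs. Of these UMIs, 53.7%, 52.9%, 85.2% and 8.76% were in cells with 10 or more Sparc and Col3a1 UMIs. The combination library thus had most of its Il33 UMIs elsewhere. In the isotype control library the 36 UMIs in this class came from 1 cell. Counted as cells with an Il33 UMI, 1 of 16, 16 of 25, 8 of 15 and 7 of 22 belonged to it, the lowest part being that of the isotype control library. Tnfsf15, which encodes TL1A, the ligand of a costimulatory receptor not particular to type 2 cells, had 257, 364, 154 and 815 UMIs. Il25 had 2 UMIs in all.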
